A study of Mus musculus with 6 samples.

Results

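Mitochondrial ribosomal protein genes were taken as all genes of the deposited table whose symbol is Mrpl or Mrps followed by a digit, a rule that uses no measured value. It gave 77 genes of 18392 listed: 48 Mrpl genes, named for the large subunit, and 29 Mrps genes, named for the small subunit. RNA was sequenced from alveolar macrophages, which live on the inner surface of the alveoli and clear surfactant and particles, sorted from lungs of C57BL/6 mice 6 weeks of age. The knockout (KO) group, Cd11c-CreHdac3fl/fl, carries floxed Hdac3 alleles and a Cre recombinase driven from the Cd11c (Itgax) promoter, with 3 libraries. The control group, Hdac3fl/fl, carries the same floxed alleles without the Cre, also with 3 libraries, so a Cre-only effect cannot be told apart from loss of Hdac3. Cd11c is also made by dendritic cells and other lung macrophages, and whether Hdac3 was deleted in those cells was not analysed here.

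Mitochondria keep a ribosome of their own, the mitoribosome, which translates the few mRNAs encoded by mitochondrial DNA, all for inner-membrane subunits of the respiratory chain and ATP synthase. Its rRNAs come from mitochondrial DNA, but its proteins are encoded in the nucleus, made in the cytosol and imported. Many descend from bacterial ribosomal proteins, whereas others were gained in mitochondria. Hdac3 is a histone deacetylase that works in nuclear corepressor complexes.

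All 77 genes were expressed at a mean of at least 1 FPKM and entered the test. FPKM scale fragments by transcript length and library total, so levels can be compared between genes. A gene is called higher or lower in KO where limma on log2(FPKM + 1) gave a Benjamini-Hochberg adjusted p under 0.05 over all 10847 tested genes, and the log2 changes of this scale understate changes of low genes. Hdac3 itself had 4.36, 5.05 and 3.97 FPKM in KO libraries, against 17.7, 19.9 and 16.9 FPKM in control libraries, a log2 change of -1.81 (SE 0.09, limma adjusted p = 6.8e-07). This gene-level value also counts exons outside a deleted part. In bulk RNA of sorted cells, fewer cells of a type and less RNA per cell cannot be told apart.

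Libraries differed in composition. The 10 most abundant genes held 25.5% to 26.8% of summed FPKM in KO and 13.2% to 13.9% in control, and the median log2 change of all tested genes was -0.31 as deposited. Rescaling with TMM (trimmed mean of M values), which lines libraries up on the bulk of their genes, brought that median to 0.04. Neither scale measures RNA per cell. Both are given below, except for the sums of cell type markers, which are as deposited and were not rescaled. Alveolar macrophage markers summed to 22881 to 29649 FPKM in KO and 18117 to 20374 FPKM in control, most of it from Chil3. Of this list of 14, none was at 0 in every library. As deposited 5 (35.7%) were called higher, where 11.0% of all tested genes were, and 7 lower, where 58.8% were. After TMM scaling 6 were called higher and 6 lower. Ear1 fell furthest, with means of 31.8 FPKM in KO and 980 FPKM in control (log2 change -4.90, -4.51 after TMM scaling). Car4 rose furthest, with means of 1749 FPKM in KO and 407 FPKM in control (2.14, 2.53 after TMM scaling). Markers of T and NK cells (2.57 to 3.70 FPKM in KO, 8.40 to 13.1 in control), B cells (5.62 to 6.94, against 14.9 to 30.2) and endothelium (30.4 to 34.8, against 38.9 to 67.0) had lower sums in every KO library as deposited. TMM scaling raises KO libraries against control libraries, so the narrow endothelial gap need not hold on that scale. Within the endothelial list Vwf went the other way, with 25.8, 30.9 and 25.6 FPKM in KO libraries and 25.1, 24.0 and 20.4 FPKM in control libraries. The sums of epithelial markers (41.8 to 113, against 113 to 310), fibroblast (2.73 to 9.66, against 6.19 to 14.9), dendritic cell (4.47 to 7.93, against 4.66 to 13.3) and neutrophil sums (29.7 to 48.4, against 28.3 to 38.2) had ranges that overlapped between groups. For epithelial markers only KO replicate 3 (112.75 FPKM, 56.5 of it Scgb1a1) reached the lowest control sum (112.73 FPKM). Of 8 tested epithelial markers 5 (62.5%, where 58.8% of all tested genes were) were called lower, and Cdh1 was called higher. Epcam had 0.15, 0.03 and 0.03 FPKM in KO libraries and 18.9, 18.3 and 14.7 FPKM in control libraries. Sftpc fell less, with 12.7, 16.1 and 26.1 FPKM in KO libraries and 88.0, 59.0 and 42.2 FPKM in control libraries. Sftpd and Scgb1a1 were not called, so Epcam does not stand for the whole list. Monocyte and interstitial macrophage markers summed to 716 to 729 FPKM in KO and 417 to 437 FPKM in control, nearly all of it Mrc1 (706 to 718 FPKM in KO, 406 to 428 FPKM in control), which alveolar macrophages also express. In the same list Ccr2 and Lyve1 were called lower and C1qb higher. The part of these markers in the results was not tested.

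As deposited, 6 of the 77 genes (7.79%) were called higher in KO, where 11.0% of all tested genes were, and 33 (42.9%) were called lower, where 58.8% of all tested genes were. The other 38 passed the test in neither direction. After TMM scaling 44 (57.1%) were called higher, against 31.7% of all tested genes, and 1 was called lower, against 24.8%. With a median-of-ratios scaling 43 were higher and 2 lower, against 30.6% and 25.5% of all tested genes. The mitoribosomal genes thus mostly lay above the bulk of genes, with 61 of 77 (79.2%) above the median of all tested genes as deposited. Scaling shifts nearly all genes of a library alike, so their place after TMM scaling adds no support. Their median log2 change was -0.12 as deposited and 0.26 after TMM scaling, so its sign depends on the scale. Every KO library exceeded every control library for 9 genes (12.1% of all tested genes did so), every KO library lay below every control library for 35 (62.4% of all tested genes), and the groups overlapped for 33.

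**Figure D1:**
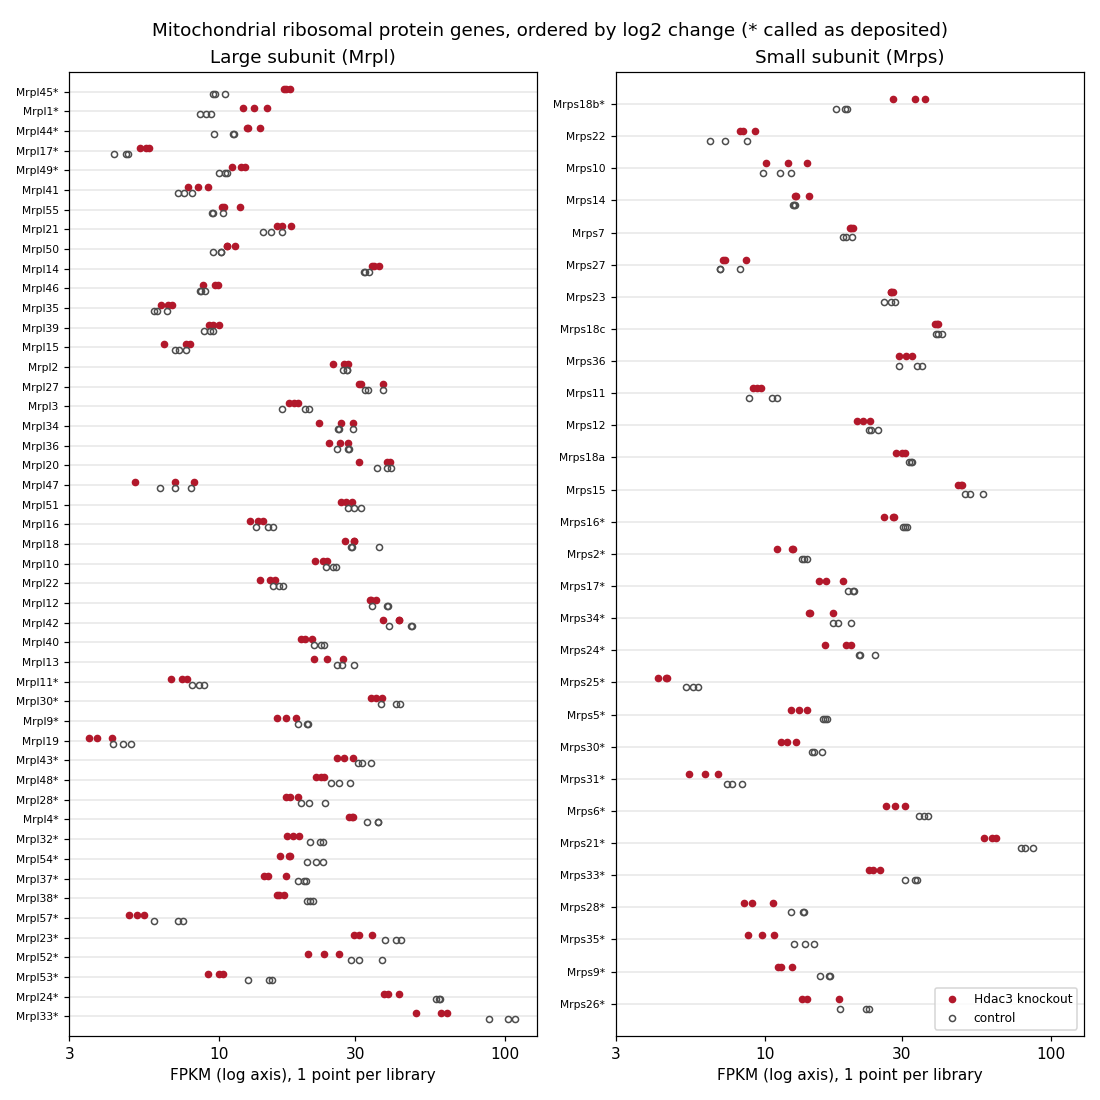
FPKM of each mitochondrial ribosomal protein gene (log axis) in 3 KO libraries (filled) and 3 control libraries (open), ordered by log2 change, large subunit left and small subunit right; an asterisk marks a call as deposited. Mrps18b, Mrpl45 and Mrpl1 at the top have KO points clear to the right of control points, and Mrpl33 at the bottom has them clear to the left.

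The genes differed less among themselves than tested genes did in how far they moved. The interquartile range of their log2 changes was 0.29, against 0.53 for all tested genes, and the distance from the 10th to the 90th percentile was 0.57, against 1.20. Changes of more than 1.5-fold were found in 3 of the 77 (3.90%) and in 29.8% of all tested genes. After TMM scaling the shares were 5.19% (4 genes) and 21.1%. Levels ran from 3.50 to 109 FPKM over all 77 genes and libraries, and 59 genes averaged at least 10 FPKM in KO, as did 59 in control. Tested genes start at a mean of 1 FPKM, and the spread was not compared with genes of matched level. The order of levels was largely kept between KO and control (Spearman rho 0.958 across 77 genes, which are not independent replicates). The median coefficient of variation of a gene was 6.13% among KO libraries and 5.50% among control libraries.

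Large-subunit genes were called higher in 5 of 48 cases and lower in 17, with 26 not called and a median log2 change of -0.11. These shares, 10.4% higher and 35.4% lower, stand beside 11.0% and 58.8% of all tested genes. Small-subunit genes were called higher in 1 of 29 cases and lower in 16, with 12 not called and a median of -0.18. The 55.2% called lower is near the share of all tested genes. After TMM scaling the large subunit had 29 higher (60.4%) and 1 lower (median 0.27), and the small subunit 15 higher (51.7%) and 0 lower (median 0.18). Of all tested genes 31.7% were then higher and 24.8% lower. The proteins of Mrps18a and Mrps30 sit in the large subunit despite their symbols, and Mrps36 is now regarded as part of the alpha-ketoglutarate dehydrogenase complex. The difference between the subunits' counts was not tested. Sorted by structure, 5 of 50 large-subunit genes were higher and 18 lower (median -0.11), and 1 of 26 small-subunit genes was higher and 15 lower (median -0.21). By place in the ribosome, 46 genes have a bacterial counterpart, of which 2 were higher and 18 lower (median -0.11). Among 28 mitochondria-specific genes 4 were higher and 14 lower (median -0.18). Mrps18a, Mrps30 and Mrps36 were left out of this split. Mrps18b counts as mitochondria-specific here, although its sequence is related to bacterial S18. Moved by sequence, it makes 3 of 47 higher with a bacterial counterpart (median -0.11) and 3 of 27 mitochondria-specific (median -0.22).

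**Figure D2:**
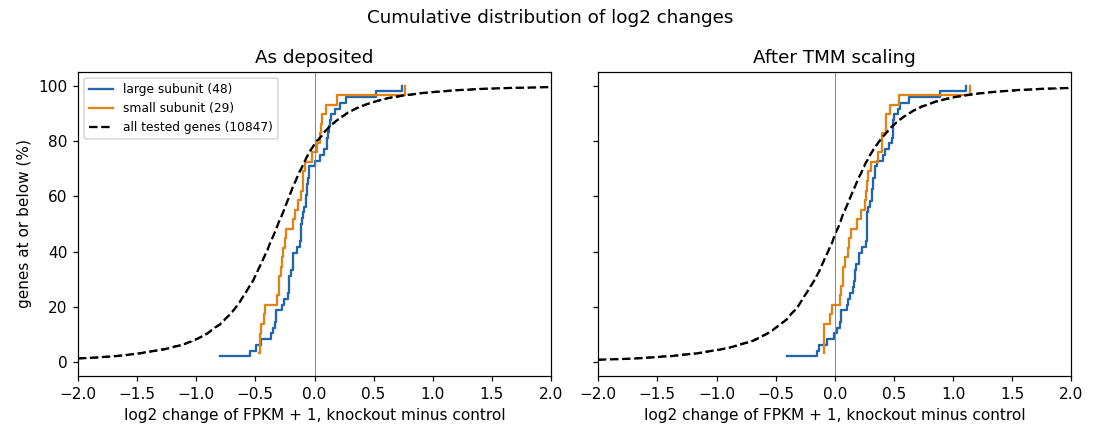
Cumulative share of genes (vertical axis, %) at or below each log2 change of FPKM + 1, KO minus control (horizontal axis), for large-subunit genes, small-subunit genes and all tested genes, as deposited (left) and after TMM scaling (right). Both subunit curves rise more steeply than the dashed curve of all tested genes and lie to its right at the middle, with medians of -0.11 and -0.18 against -0.31 as deposited.

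The summed levels of both subunits were lower in KO as deposited and higher in KO after TMM scaling. Large-subunit genes summed to 975 ± 31.1 FPKM in KO and 1109 ± 41.8 FPKM in control, and small-subunit genes to 588 ± 10.5 FPKM in KO and 662 ± 13.4 FPKM in control (SD, n = 3 each). The ratio of large to small was 1.66 ± 0.0504 in KO (1.61 to 1.71) and 1.68 ± 0.0322 in control (1.64 to 1.70), with overlapping ranges. This ratio weighs abundant genes most. Taken gene by gene, the mean log2(FPKM + 1) of the large subunit minus that of the small subunit was 0.021, -0.0020 and 0.065 in KO libraries, against -0.059, -0.016 and -0.022 in control libraries. Every KO library lay above every control library in this measure, the nearest values being -0.0020 in KO and -0.016 in control. A library's scaling factor nearly cancels in it, so the same order after TMM scaling adds no support. The measure splits genes by symbol, with Mrps18a, Mrps30 and Mrps36 counted in the small subunit. All 77 genes together summed to 1521 to 1589 FPKM in KO and 1724 to 1831 FPKM in control, which was 0.310% to 0.319% of summed FPKM in KO and 0.372% to 0.391% in control. After TMM scaling the direction turned, with sums of 1749 to 1819 FPKM in KO and 1505 to 1606 FPKM in control.

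**Figure D3:**
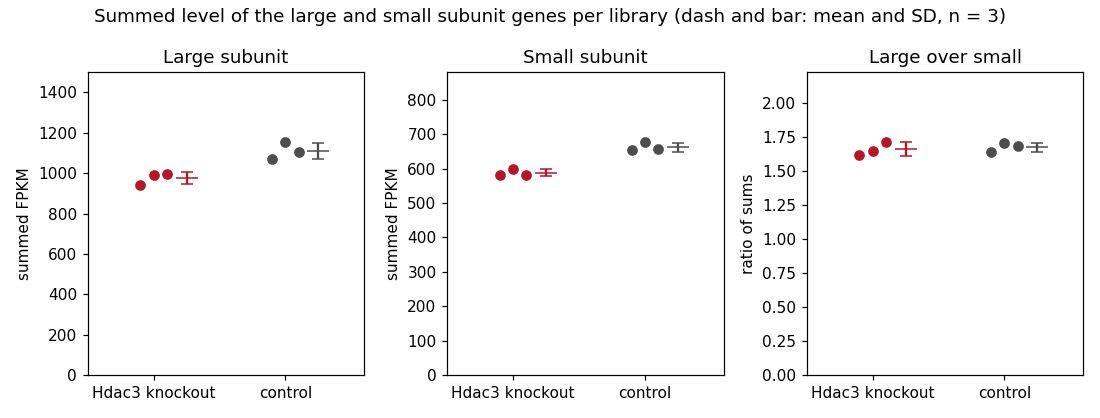
Summed FPKM of large-subunit genes (left) and small-subunit genes (middle) and the ratio of both sums (right) in each KO and control library, with mean and SD beside the points (n = 3). Values are as deposited, where both sums are lower in every KO library than in every control library (the reverse after TMM scaling), while the ratios overlap between 1.64 and 1.70.

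Against this even background 7 genes were called in the same direction on both scales: Mrps18b, Mrpl45, Mrpl1, Mrpl44, Mrpl17 and Mrpl49 higher, and Mrpl33 lower. Of all tested genes 11.0% were higher and 24.7% lower on both scales. TMM scaling raised KO libraries against control libraries, so all 1194 tested genes called higher as deposited stayed higher. For the 6 higher genes the second scale therefore adds no support, whereas a call as lower could be lost. Of these 7, the promoter windows of the 4 that moved furthest are shown because the search for regulator motifs further on refers to them. Each runs 5′ to 3′ on the strand of the gene, from 250 bases before to 50 bases after a RefSeq start on GRCm38.p6 (the mm10 assembly). Capitals mark matches to an ETS motif (CCGGAAG or its reverse complement) or an NRF1 motif (GCGC and TGCGC with 1 base between them, or its reverse complement). Mrps18b lies at chr17:35916391-35916690 (minus strand), Mrpl45 at chr11:97315466-97315765 (plus), Mrpl1 at chr5:96209865-96210164 (plus) and Mrpl33 at chr5:31613701-31614000 (plus). The Mrpl45 and Mrpl1 windows lie wholly inside the annotated gene spans, which begin upstream at chr11:97314923 and chr5:96209498. The 5′ ends of those spans were not searched.
Mrps18b: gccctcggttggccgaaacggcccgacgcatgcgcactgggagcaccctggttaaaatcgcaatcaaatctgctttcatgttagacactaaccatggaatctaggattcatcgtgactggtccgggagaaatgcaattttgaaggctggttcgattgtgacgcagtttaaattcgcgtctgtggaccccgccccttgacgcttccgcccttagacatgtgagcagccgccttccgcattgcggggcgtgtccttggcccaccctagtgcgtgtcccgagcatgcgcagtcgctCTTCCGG
Mrpl45: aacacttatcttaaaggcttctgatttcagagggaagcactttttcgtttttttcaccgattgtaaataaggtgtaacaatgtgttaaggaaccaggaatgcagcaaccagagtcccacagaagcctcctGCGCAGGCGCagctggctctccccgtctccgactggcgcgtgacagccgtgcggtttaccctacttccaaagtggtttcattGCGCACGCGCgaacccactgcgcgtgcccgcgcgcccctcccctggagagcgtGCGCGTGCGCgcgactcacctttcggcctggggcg
Mrpl1: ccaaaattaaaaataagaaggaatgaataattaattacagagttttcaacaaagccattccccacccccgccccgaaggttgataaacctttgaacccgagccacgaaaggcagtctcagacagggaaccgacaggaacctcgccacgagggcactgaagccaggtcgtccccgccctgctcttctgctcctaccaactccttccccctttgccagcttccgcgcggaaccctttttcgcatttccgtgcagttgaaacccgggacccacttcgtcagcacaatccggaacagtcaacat
Mrpl33: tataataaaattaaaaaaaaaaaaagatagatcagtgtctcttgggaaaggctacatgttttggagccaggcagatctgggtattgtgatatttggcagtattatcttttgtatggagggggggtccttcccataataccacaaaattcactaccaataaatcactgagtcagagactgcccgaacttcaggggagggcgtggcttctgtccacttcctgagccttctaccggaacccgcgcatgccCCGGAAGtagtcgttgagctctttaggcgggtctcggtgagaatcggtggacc
The Mrps18b window holds 1 ETS match, which begins 44 bases after the start, and the Mrpl33 window 1 beginning 3 bases before it (position -3). The Mrpl45 window has 3 NRF1 matches, and the Mrpl1 window has no match to the motifs searched.

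Mrps18b, one of the mammalian homologs of bacterial S18 and a small-subunit protein, had the largest upward log2 change of the 77 genes. It had 33.6, 36.2 and 28.1 FPKM in KO libraries, against 19.3, 19.1 and 17.7 FPKM in control libraries. All KO libraries lay above all control libraries, with means of 32.6 ± 4.13 FPKM in KO and 18.7 ± 0.894 FPKM in control, a ratio of 1.74. As deposited its log2 change was 0.76, with an SE of 0.09 and a limma adjusted p of 8.2e-05. With TMM the change came to 1.15 (limma adjusted p = 8.3e-06). A lncRNA, Gm16279, shares 141 bases with the gene's span at chr17:35910380-35916440 and is not listed in the table. Strand handling is not given, so its reads cannot be told apart.

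The other mammalian S18 homologs moved little. Mrps18c had 40.3, 39.2 and 39.8 FPKM in KO libraries, against 39.6, 40.1 and 41.5 FPKM in control libraries, and the groups overlapped (log2 change -0.02, 0.37 after TMM scaling). Mrps18a, whose protein is built into the large subunit, had 30.1, 30.7 and 28.8 FPKM in KO libraries and 32.7, 32.5 and 32.0 FPKM in control libraries. Its log2 change was -0.11 (limma adjusted p = 0.0902) as deposited and 0.27 after TMM scaling, where it was called higher, as was Mrps18c. In KO the levels ran from Mrps18c down to Mrps18b and Mrps18a, whose libraries overlapped. In control Mrps18b was the lowest of the 3 in every library.

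Mrpl45 encodes a protein at the exit of the peptide tunnel that ties the mitoribosome to the inner membrane, where its products are inserted. It had 17.1, 17.7 and 16.9 FPKM in KO libraries, against 9.57, 10.5 and 9.72 FPKM in control libraries. The spread within each group was small beside the difference, with means of 17.2 ± 0.412 FPKM in KO and 9.92 ± 0.488 FPKM in control. This gave a log2 change of 0.74 with an SE of 0.06 (limma adjusted p = 1.1e-05), or 1.11 with TMM.

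Mrpl1, homolog of the bacterial L1 protein of the mobile stalk beside the tRNA exit site, had 14.7, 12.1 and 13.3 FPKM in KO libraries. Control libraries had 8.61, 9.37 and 8.99 FPKM, all below the KO values. Limma gave a log2 change of 0.52 with an SE of 0.08 and an adjusted p of 3.5e-04, or a change of 0.89 with TMM.

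The remaining 3 genes called higher moved less. Mrpl44, a protein with an RNase III-like fold that is mutated in a human cardiomyopathy, had 12.6, 12.6 and 13.9 FPKM in KO libraries and 9.63, 11.3 and 11.2 FPKM in control libraries (log2 change 0.26, limma adjusted p = 0.0145). Its call was lost without control replicate 1 (limma adjusted p = 0.0560) or KO replicate 3 (0.0505). Mrpl17, located near the tunnel exit, had 5.70, 5.56 and 5.30 FPKM in KO libraries and 4.75, 4.82 and 4.29 FPKM in control libraries (log2 change 0.22, limma adjusted p = 0.0280). Without control replicate 3, KO replicate 1 or KO replicate 2 its limma adjusted p was 0.0792, 0.0894 and 0.0692. Mrpl49 had 11.98, 12.4 and 11.1 FPKM in KO libraries and 10.7, 10.5 and 9.99 FPKM in control libraries (log2 change 0.17, limma adjusted p = 0.0454). Its call was lost when any library other than KO replicate 3 was left out, with limma adjusted p of 0.0691 to 0.138. After TMM scaling the log2 changes of Mrpl44, Mrpl17 and Mrpl49 were 0.63, 0.55 and 0.54. Mrpl44 shares 126 bases with Wdfy1 and Mrpl49 shares 89 bases with Syvn1, and both of those neighbours were called lower in KO.

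Mrpl33, homolog of the small bacterial L33 protein and the most abundant of the 77 genes by its mean over all libraries, was the one gene called lower on both scales. It had 49.0, 60.0 and 62.7 FPKM in KO libraries, against 88.3, 102 and 109 FPKM in control libraries. The groups did not overlap, with means of 57.2 ± 7.30 FPKM in KO and 99.9 ± 10.5 FPKM in control. The ratio was 0.573 and the log2 change -0.80, with an SE of 0.11 and a limma adjusted p of 2.8e-04. With TMM the change was -0.40 (limma adjusted p = 0.0122). The annotated lncRNA Gm38424 covers the whole span of Mrpl33 at chr5:31613951-31622644, and reads of both cannot be told apart.

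Mrpl24, near the tunnel exit, came next in the downward direction. It had 39.0, 38.0 and 42.9 FPKM in KO libraries, against 57.5, 59.4 and 58.9 FPKM in control libraries (log2 change -0.54, SE 0.06, limma adjusted p = 5.8e-05). After TMM scaling its log2 change was -0.15 (limma adjusted p = 0.0652) and not called. With another scaling, by the median of ratios, it was called lower along with Mrpl33. Mrpl24 overlaps Rrnad1 by 850 bases, itself called lower in KO.

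The next 6 genes by size of fall were Mrpl53, Mrps26, Mrps9, Mrps35, Mrps28 and Mrpl52, with log2 changes from -0.50 to -0.45 as deposited. All 6 were called lower, and KO libraries lay below control libraries in each. Mrps9, homolog of bacterial S9, is an example with 11.0, 12.4 and 11.4 FPKM in KO libraries and 15.6, 16.7 and 16.9 FPKM in control libraries. After TMM scaling their log2 changes were between -0.13 and -0.07, and none was called.

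Among the most abundant small-subunit genes, Mrps21, homolog of bacterial S21, had 62.0, 58.1 and 64.0 FPKM in KO libraries, against 81.3, 86.8 and 78.6 FPKM in control libraries. It was called lower as deposited (log2 change -0.42, limma adjusted p = 3.4e-04) and was at -0.02 after TMM scaling. Mrps15 averaged 48.2 ± 0.746 FPKM in KO and 53.2 ± 4.01 FPKM in control, and Mrps6 28.6 ± 2.14 FPKM in KO and 35.9 ± 1.43 FPKM in control. Mrps6 was called lower as deposited (log2 change -0.32, 0.07 after TMM scaling), and Mrps15 was called higher after TMM scaling (-0.14 as deposited, 0.25 after). Of the abundant large-subunit genes, Mrpl42 averaged 41.0 ± 2.94 FPKM in KO and 44.7 ± 4.48 FPKM in control. Its groups overlapped, and its log2 change was -0.12 as deposited (not called) and 0.27 after TMM scaling (called higher). Without control replicate 1 it was called lower as deposited (limma adjusted p = 0.0482).

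The genes of lowest level were Mrpl19, Mrpl17, Mrpl57 and Mrpl35 in the large subunit and Mrps25, Mrps31, Mrps27 and Mrps22 in the small subunit. Mrpl19, homolog of bacterial L19, had 3.76, 4.24 and 3.50 FPKM in KO libraries and 4.26, 4.91 and 4.61 FPKM in control libraries. Each KO value was below each control value, but the log2 change of -0.21 was not called (limma adjusted p = 0.0555). Without control replicate 1 (limma adjusted p = 0.0495) or KO replicate 2 (0.0337) it was called lower. Mrps22, mutated in a human respiratory chain deficiency, had 9.18, 8.34 and 8.18 FPKM in KO libraries, against 7.26, 8.64 and 6.43 FPKM in control libraries, with overlap. Its log2 change was 0.19 (limma adjusted p = 0.122), the largest upward value not called. It was called higher without control replicate 2 (limma adjusted p = 0.0241) and after TMM scaling (log2 change 0.54). Mrpl41 had overlapping groups too, with a log2 change of 0.14 as deposited, not called, and 0.49 after TMM scaling. Mrpl35 (0.08) and Mrps27 (0.05) were not called, and Mrpl57 (-0.35), Mrps31 (-0.30) and Mrps25 (-0.28) were called lower as deposited, Mrps31 not without control replicate 2 (limma adjusted p = 0.0560).

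For 3 genes with bacterial counterparts the call itself turned round with the scale. Mrps2 had a log2 change of -0.18 as deposited, called lower, and of 0.18 after TMM scaling, called higher. Mrpl30 stood at -0.18 and 0.20 on these scales, and Mrps16, which is mutated in a human respiratory chain deficiency, at -0.16 and 0.22. Mrps16 had 26.1, 28.2 and 28.1 FPKM in KO libraries, against 31.2, 30.4 and 30.9 FPKM in control libraries. The call as lower was near the threshold in all 3 (limma adjusted p = 0.0373 for Mrps2, 0.0409 for Mrpl30 and 0.0293 for Mrps16). Leaving out any of several libraries removed it. It was lost for Mrps2 without any library except KO replicate 2 (limma adjusted p = 0.0504 to 0.101). For Mrpl30 it was lost without control replicate 2 or 3 or KO replicate 1 or 2 (limma adjusted p = 0.0869 to 0.149), and for Mrps16 without any control library or KO replicate 1 (limma adjusted p = 0.0556 to 0.0991).

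Genes that work with the mitoribosome were described from lists of the same pathway. The shares of all tested genes to set beside each list are 11.0% higher and 58.8% lower as deposited. After TMM scaling they are 31.7% higher and 24.8% lower. Among mitoribosomal proteins with other symbols, 6 were tested, 1 was called higher and 2 lower, with a median log2 change of -0.17 (3 higher and 0 lower after TMM scaling). Chchd1, a small-subunit protein, was the higher one, with 30.9, 28.9 and 34.2 FPKM in KO libraries and 22.3, 23.7 and 24.9 FPKM in control libraries. The KO values all exceeded the control values, and the log2 change was 0.39 (limma adjusted p = 0.0014), or 0.77 after TMM scaling. Ict1, a peptidyl-tRNA hydrolase built into the large subunit, averaged 15.9 ± 0.661 FPKM in KO and 21.2 ± 0.674 FPKM in control (log2 change -0.39, -0.02 after TMM scaling). Gadd45gip1, a large-subunit protein, was the other one called lower (-0.24, 0.12 after TMM scaling). Its call was lost without KO replicate 1 (limma adjusted p = 0.0554) or KO replicate 3 (0.0582).

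Of 15 translation factors and mRNA partners, 1 was called higher and 9 (60.0%, near the 58.8% of all tested genes) lower (median -0.22). After TMM scaling 6 (40.0%) were higher and 0 lower, against 31.7% and 24.8% of all tested genes. Slirp, the partner of Lrpprc that binds mitochondrial mRNAs, was the higher one, with 33.9, 34.7 and 37.6 FPKM in KO libraries and 29.3, 31.2 and 28.5 FPKM in control libraries (log2 change 0.25, limma adjusted p = 0.0070). Mtfmt, which formylates the initiator tRNA, averaged 4.63 ± 0.529 FPKM in KO and 7.12 ± 0.131 FPKM in control (-0.53, -0.19 after TMM scaling). Mtrf1l, a release factor, averaged 2.02 ± 0.223 FPKM in KO and 3.23 ± 0.150 FPKM in control (-0.49, -0.20 after TMM scaling).

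None of 25 genes for charging and recycling mitochondrial tRNAs was called higher as deposited and 16 were called lower (median -0.26). That is 64.0%, near the 58.8% of all tested genes, while 4 were higher and 2 lower after TMM scaling. The 2 were Fars2 and Cars2, the mitochondrial phenylalanyl- and cysteinyl-tRNA synthetases. Fars2 had 5.97, 5.90 and 5.31 FPKM in KO libraries, against 11.4, 11.3 and 11.5 FPKM in control libraries (log2 change -0.88, limma adjusted p = 6.9e-06; -0.53 after TMM scaling). Cars2 averaged 7.82 ± 0.483 FPKM in KO and 14.1 ± 0.958 FPKM in control (-0.78, -0.42 after TMM scaling). For neither enzyme did the groups overlap.

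In assembly and rRNA modification, 26 of 27 listed genes were tested, 0 were called higher and 17 lower (median -0.31), with 5 higher and 3 lower after TMM scaling. The 65.4% called lower is near the 58.8% of all tested genes, and the median equals theirs to 2 decimals. Rpusd3, a pseudouridine synthase family protein, had 3.60, 5.99 and 4.85 FPKM in KO libraries and 9.43, 9.77 and 10.5 FPKM in control libraries (log2 change -0.92, limma adjusted p = 5.0e-04; -0.58 after TMM scaling). Ddx31, a helicase known from the nucleolus, averaged 5.03 ± 0.515 FPKM in KO and 8.33 ± 0.362 FPKM in control (-0.63, -0.29 after TMM scaling). Of 15 genes of mitochondrial transcription and RNA processing, 1 was higher and 8 (53.3%, near the share of all tested genes) lower (median -0.33). After TMM scaling 4 were higher and 1 lower. Pnpt1, the mitochondrial polynucleotide phosphorylase, averaged 25.6 ± 1.42 FPKM in KO and 20.8 ± 1.34 FPKM in control (log2 change 0.29, limma adjusted p = 0.0047; 0.67 after TMM scaling). Polg2 (-0.59) and Polg (-0.53), which make up the DNA polymerase of mitochondria rather than an RNA-processing enzyme, were called lower as deposited. Of 28 mitochondrially encoded genes looked up by symbol 0 were listed, so transcripts of mitochondrial DNA were not analysed here.

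**Figure D4:**
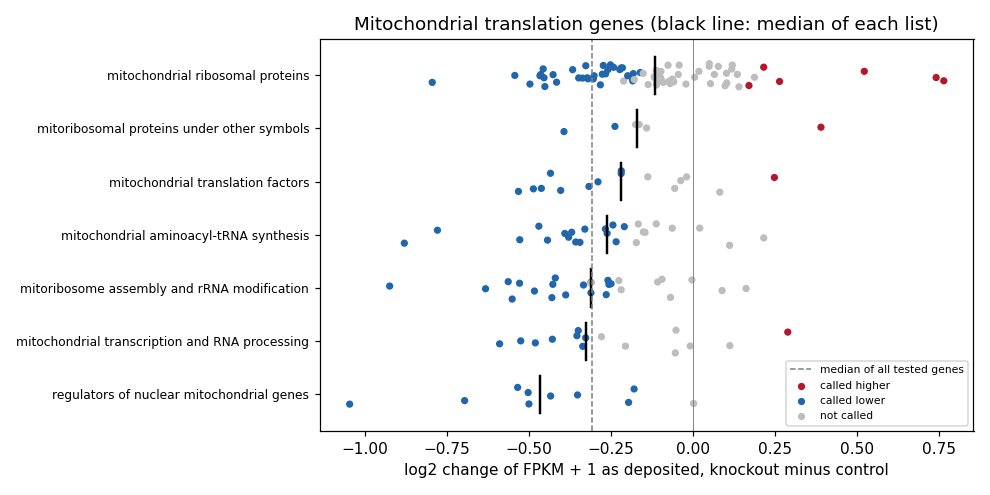
Log2 change of FPKM + 1 as deposited, KO minus control (horizontal axis), of each tested gene in the mitochondrial ribosomal proteins and in 6 lists of genes that work with them or regulate them; colours mark calls and black lines list medians. Medians fall between -0.12 for the ribosomal proteins and -0.47 for the regulators, with all tested genes (dashed line) at -0.31.

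Regulators of nuclear genes for mitochondrial proteins had the lowest median of the 6 pathway lists, -0.47, with 9 of 10 tested genes called lower and 0 called higher as deposited. After TMM scaling 2 were lower and 2 higher (20.0% each). Of all tested genes 58.8% were lower and 11.0% higher as deposited, and 24.8% were lower and 31.7% higher after TMM scaling. Myc, a transcription factor known to drive ribosome and mitochondrial genes, had 21.4, 24.6 and 22.4 FPKM in KO libraries, against 56.0, 50.8 and 39.2 FPKM in control libraries. Even the lowest control value was above every KO value (log2 change -1.05, SE 0.13, limma adjusted p = 1.8e-04; -0.66 after TMM scaling). Ppargc1b, a coactivator of mitochondrial biogenesis, averaged 3.03 ± 0.196 FPKM in KO and 5.54 ± 0.416 FPKM in control (-0.70, -0.38 after TMM scaling). These 2 were the ones lower on both scales.

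The cytosolic ribosome and the respiratory chain were set beside the mitoribosome. Of 80 tested cytosolic ribosomal protein genes 4 were called higher and 36 (45.0%) lower as deposited (median -0.17), and 39 (48.8%) higher and 1 lower after TMM scaling. Of 74 nuclear-encoded respiratory chain genes 2 were higher and 42 (56.8%) lower (median -0.20), and 36 (48.6%) higher and 1 lower after TMM scaling. Of all tested genes 11.0% were higher and 58.8% lower as deposited, and 31.7% were higher and 24.8% lower after TMM scaling. The narrow spread was seen in these lists too, with interquartile ranges of 0.31 and 0.23 and with 3.75% and 2.70% of genes past 1.5-fold. No test of a difference between these lists was made.

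Promoter windows of the RefSeq table were searched on both strands for motifs of factors known to act on nuclear genes for mitochondrial proteins. Of the 77 genes 68 had an entry, with 74 windows of 300 bases. The ETS motif CCGGAAG, the core bound by the Gabpa family, was in 33.8% of these windows, against 19.3% of windows of tested genes and 8.86% of all 32851 windows. The NRF1 motif was in 17.6%, against 10.7% and 4.60%. The YY1 motif AAGATGGC was in 16.2%, against 4.92% and 2.75%, and the E-box CACGTG bound by Myc in 9.46%, against 10.4% and 7.15%. These shares describe letters in a window and show no binding.

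**Figure D5:**
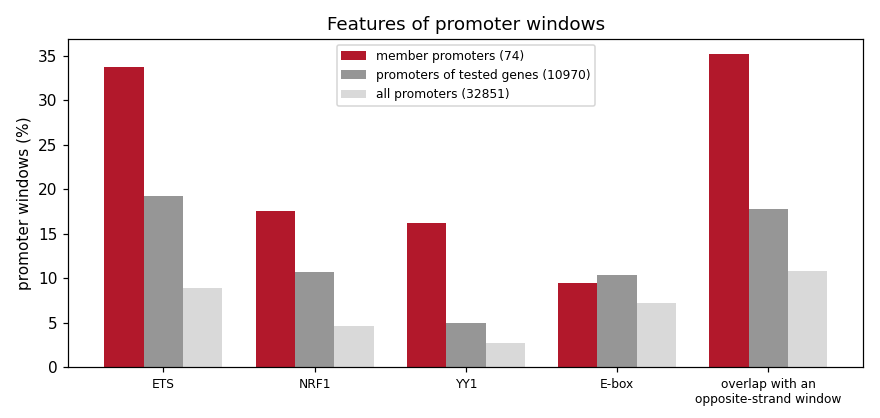
Share of promoter windows (vertical axis, %) that hold each motif on either strand, or that overlap a window on the opposite strand, for the mitochondrial ribosomal protein genes, all tested genes and all genes of the RefSeq table. Bars of the ribosomal protein genes are highest for ETS (33.8%), NRF1 (17.6%), YY1 (16.2%) and window overlap (35.1%), but not for the E-box (9.46%).

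Windows of the mitoribosomal genes often faced another gene: 35.1% overlapped a window on the opposite strand, against 17.8% for tested genes and 10.8% for all windows. This concerned 24 genes in 24 ordered pairs with 22 partners outside the family. Of those partners 0 were called higher and 13 lower, 8 were not called and 1 was not tested. The 61.9% of 21 tested partners called lower is near the 58.8% of all tested genes. After TMM scaling 6 partners (28.6%) were higher and 1 lower, against 31.7% and 24.8% of all tested genes. Mrpl46 and Mrps11, from different subunits, face each other. Mrpl46 averaged 9.46 ± 0.567 FPKM in KO and 8.74 ± 0.209 FPKM in control, and Mrps11 9.37 ± 0.290 FPKM in KO and 10.1 ± 1.20 FPKM in control, neither called as deposited and both higher after TMM scaling. Mrpl49 faces Fau, which encodes a cytosolic ribosomal protein fused to a ubiquitin-like one. Mrpl49 was called higher, while Fau averaged 779 FPKM in KO and 1017 FPKM in control and was called lower (log2 change -0.39; 0.01 after TMM scaling). Mrps7, homolog of bacterial S7, averaged 20.1 ± 0.259 FPKM in KO and 19.3 ± 0.727 FPKM in control (not called), while its partner Gga3, a sorting adaptor of the Golgi, was called lower on both scales (-0.67, -0.29 after TMM scaling). Mrps12 with Sars2, Mrps27 with Ptcd2 and Mrpl43 with Twnk are pairs in which the partner also serves mitochondrial gene expression. These pairs were named after their values were seen. Genes in such pairs can overlap: 25 of the 77 share bases with another annotated gene, 20 of them with a protein-coding one, and without known strand handling such reads cannot be told apart. Counts of Mrpl23, Mrpl51, Mrpl48, Mrps36, Mrps33 and Mrpl27 are also uncertain because 8 annotated pseudogenes resemble them.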

How the data were processed

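RNA-seq libraries of alveolar macrophages were compared between Hdac3 KO (3 libraries) and control (3 libraries). The submitters' processing notes name Bowtie2, RSEM and the build mm10. Tool versions and strand handling were not given in the sources used here. FPKM per gene, rounded to 2 decimals, are what the authors deposited, 1 column for each library per the file headers. Whether libraries came from separate mice is not in the labels, so the p-values cover only the spread among libraries, which may be technical. FPKM keep no absolute depth, so no counting interval is given. Relative depth, read from the value of 1 read in genes of 0.4 to 3 FPKM, was 96.3% to 105% of that of the first control library.

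Symbols turned into dates were restored for 24 genes. Of the gene IDs, 18342 matched RefSeq genes on GRCm38.p6, all 77 mitochondrial ribosomal protein genes among them. Mrpl58 is listed under its older symbol Ict1 and so falls outside the rule. Tests used limma 3.58.1 (R 4.3.3) on log2(FPKM + 1), two-sided and with genotype alone, with trended and robust empirical Bayes, in genes averaging 1 FPKM or more, with Benjamini-Hochberg adjustment and a threshold of 0.05. TMM factors (30% of ratios and 5% of levels trimmed) were computed in R from the FPKM matrix. The trimmed log ratios were averaged without the precision weights of the published formula, which need counts. Tests on simulated data were made first. The 13 alternatives were 2 scalings, a pseudocount of 0.1, no filter, a filter of 5 FPKM, no variance trend, a replicate block and leaving out each library.

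Named genes were Hdac3; the 8 highest and 8 lowest log2 changes; the 4 highest and 4 lowest levels per subunit; all genes called higher; those whose call turned with scaling; genes sharing a stem (Mrps18a, b and c); and up to 2 called genes per direction in each pathway list. The genes and lists were chosen with earlier results of these data known.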

Additional observations from a re-analysis of the deposited data

How the results depend on the processing

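Many directions depended on the scaling. With TMM and median-of-ratios scaling, 3427 and 3313 of all tested genes were higher and 2678 and 2762 lower, against 1194 and 6376 as deposited. Of the mitochondrial ribosomal protein genes 44 and 43 were higher and 1 and 2 lower, against 6 and 33. Their median log2 change was 0.26 and 0.25 (large subunit 0.27 and 0.26, small subunit 0.18 and 0.17), and that of all tested genes 0.040 and 0.027. The median of all tested genes was -0.35 with a pseudocount of 0.1 and -0.14 with no filter. Log2 changes that reversed under TMM and median-of-ratios scaling were Mrps6 (0.066 and 0.052), Mrps31 (0.043 and 0.031), Mrps25 (0.055 and 0.043), Gadd45gip1 (0.12 and 0.11), Mrpl19 (0.11 and 0.10), Mrps2 (0.18 and 0.17), Mrpl30 (0.20 and 0.19), Mrps16 (0.22 and 0.21), Mrps15 (0.25 and 0.24), Mrpl42 (0.27 and 0.26), Mrps18a (0.27 and 0.26) and Mrps18c (0.37 and 0.35). The factors shift all genes of a library by 1 amount, and which scale is nearer to RNA per cell was not tested.

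Leaving out 1 library gave 1027 to 1165 genes higher and 5780 to 6080 lower among all tested, 4 to 6 higher and 23 to 32 lower among the mitochondrial ribosomal protein genes, and medians of -0.16 to -0.11 for these and -0.31 to -0.30 for all. Without KO replicate 1 the log2 change of Mrps27 was -0.025 (0.05 with all libraries), and the cause was not tested. Same-numbered libraries did not deviate together (correlations of deviations -0.11, -0.06 and -0.09). This shows no sign of pairing but cannot exclude it, and the labels do not say whether the numbers pair libraries. With a replicate block 5 of the mitochondrial ribosomal protein genes were higher and 29 lower (1180 and 6193 of all tested genes), and Mrpl49 (limma adjusted p = 0.0578), Mrps2 (0.0601) and Mrps16 (0.0551) lost their calls among the genes named. With no filter 5 were higher and 27 lower, and Mrpl49 (limma adjusted p = 0.0615), Mrps2 (0.0541) and Mrpl30 (0.0673) lost theirs. Unknown absolute depth leaves the counting error of genes of low level unknown.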
